A study of Mus musculus with 5 samples.

Results

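Translation initiation and elongation factors are the proteins that bring an mRNA and the ribosome together and then carry the ribosome along it. They were taken here as every gene of the deposited table whose symbol begins with Eif1 to Eif6 or with Eef1 or Eef2, leaving out Eef1e1, which gave 60 of 13004 genes. The rule used only gene names, not measured values. In initiation, eIF2 delivers the initiator tRNA, eIF1, eIF1A and the large eIF3 complex prepare the small ribosomal subunit, and the eIF4 proteins bind the mRNA cap and unwind the leader. eIF5 and eIF5B then join the large subunit, and eEF1 and eEF2 drive elongation. MYC is known in many cell types to promote ribosome production and protein synthesis, and several of these genes have been described as MYC targets.

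The libraries were made from RNA of natural killer (NK) cells, lymphocytes that kill infected or transformed cells, sorted from mouse spleen as live CD3-NK1.1+DX5+ cells. There were 2 MycKO libraries (replicates 5 and 6, genotype Mycdelta/delta/Ncr1Cre) and 3 control libraries (replicates 1, 2 and 3, genotype Mycf/f), all from C57BL/6 mice aged 8 weeks. Ncr1 is an NK cell receptor gene, so the Cre acts in cells that have switched Ncr1 on, and the control genotype names no Cre, so Cre and the loss of Myc cannot be told apart. Whether the libraries of a group stem from different mice is not in the labels. The p-values therefore cover only the variation seen among these 5 libraries, part or all of which could be technical.

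Values are RPKM, read counts scaled for transcript length and for the library's total. The reads in listed genes came to 5451728 and 13337084 in MycKO 5 and 6, against 14290690 to 17610826 in the controls. Myc itself had 12.5 and 8.70 RPKM in MycKO 5 and 6, against 12.98, 22.97 and 21.24 RPKM in controls 1, 2 and 3. Both MycKO libraries lay below every control, MycKO 5 narrowly, and the log2 fold change was -0.77 (SE 0.28, limma adjusted p = 0.297). The sources used here do not name the deleted stretch of the gene, so this level does not measure the deletion. All 8 NK markers examined (Ncr1, Klrb1c, Itga2, Eomes, Tbx21, Gzma, Prf1, Klrk1) were present, with a summed level of 6923 and 8371 RPKM in MycKO 5 and 6, against 9703 to 11074 RPKM in controls. For other cell types of the spleen, the summed marker levels were above those of every control in both MycKO libraries. Macrophage and monocyte markers summed to 1148 to 1427 RPKM in MycKO and 217 to 377 RPKM in controls, and 9 of 10 passed the test as higher, against 1.24% of the 11190 genes tested. T cell markers summed to 144 to 199.5 RPKM in MycKO and 38.1 to 61.2 RPKM in controls, and 3 of 7 passed as higher. B and plasma cell markers summed to 344 to 679 RPKM in MycKO and 89.6 to 139.8 RPKM in controls. Of these 7, 1 passed as higher. Neutrophil markers summed to 228 to 551 RPKM in MycKO and 21.9 to 74.0 RPKM in controls. Of 5 tested, 2 passed as higher, and Mpo was at 0 in every control. The 3 red cell markers given here summed to 84.4 to 187 RPKM in MycKO and 3.37 to 4.72 RPKM in controls. Of these 3, 2 passed as higher. Basophil and mast cell markers summed to 8.38 to 47.8 RPKM in MycKO and 1.84 to 4.64 RPKM in controls. Of these 4, 0 passed as higher, though their median log2 fold change was 1.52, and Mcpt8 was at 0 in every control. These other cells also use translation factors, and their part in the results below was not tested. In bulk samples, fewer cells of a type and less RNA per cell cannot be told apart, and RPKM is relative to the library total, so a change in the amount of mRNA per cell would not show.

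No translation factor transcript passed the test. Of 60 members, all of which passed the filter on low values, 0 had a limma adjusted p under 0.05, against 1.34% of all genes tested (1.24% higher and 0.0983% lower in MycKO). At an unadjusted p under 0.05 there were 2 members, against 13.2% of all genes: Eef1akmt1, higher in MycKO like 9.83% of all genes, and Eif3f, lower like 3.35%. By comparison, limma-voom and the authors' deposited table also called 0 members at an adjusted p under 0.05, against 2.07% and 3.4% of all genes. The members' median log2 fold change (MycKO minus control, on the log2(RPKM + 1) scale) was 0.028, beside 0.048 over all genes tested. In direction, 35 members were higher and 25 lower in MycKO, and of all genes tested 42.9% were lower. Median-of-ratios scaling turned the members' split to 26 higher and 34 lower, and under it the median over all genes was -0.0011. The levels of MycKO and control did not overlap in 16 members (10 higher and 6 lower in MycKO), which is 26.7%, close to the 29.1% of all genes (18.8% higher and 10.4% lower). Judged only by the variation among the libraries, the intervals of most members were narrow. They hold for the sorted samples, other cell types included, and not for NK cells alone. On the log2(RPKM + 1) scale, the 95% interval lay inside a 2-fold change either way for 57 of 60 members, all but Eif4ebp1, Eef1akmt1 and Eef2kmt. It lay inside 1.5-fold for 42. The added 1 RPKM shrinks fold changes of low members, such as Eif2b3 (mean 3.12 RPKM), so their changes in level are bounded less tightly.

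**Figure D1:**
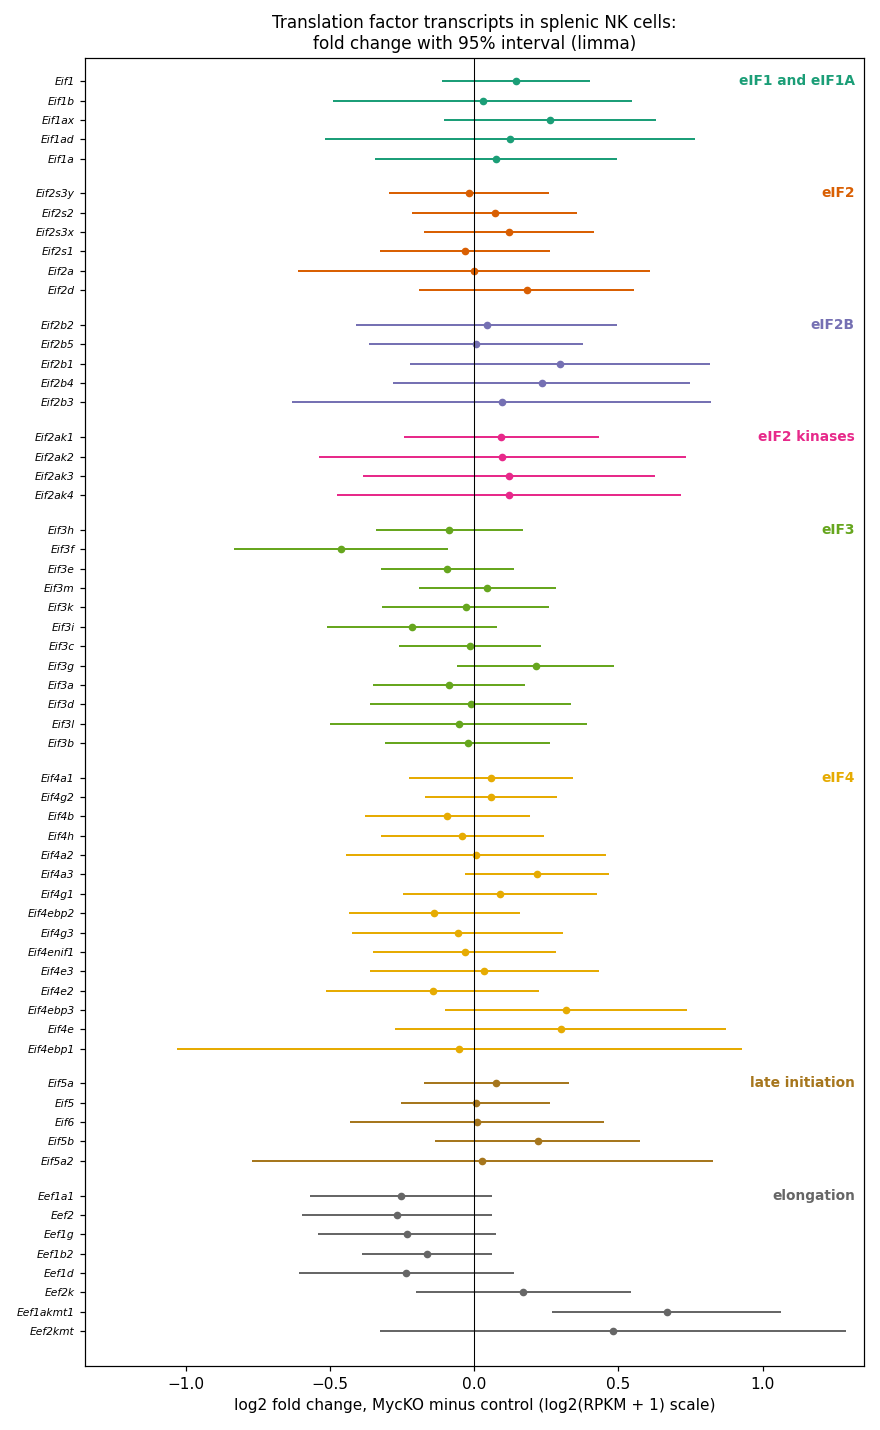
Log2 fold change (MycKO minus control, log2(RPKM + 1) scale, horizontal axis) of each of the 60 members, grouped by role and ordered by mean level within a group; points are estimates and lines are 95% intervals from limma over 2 MycKO and 3 control libraries. Most points lie near 0, the 5 eEF1 and eEF2 subunits lie left of it, and the intervals of Eif3f and Eef1akmt1 alone leave out 0.

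The members covered a wide range of levels. Eef1a1, the tRNA-carrying elongation factor eEF1A, was by far the most abundant, with a mean of 4089 RPKM over the 5 libraries, and the lowest was Eif2b3, a subunit of the exchange factor eIF2B, at 3.12 RPKM. The median member was at 58.2 RPKM. After Eef1a1 came Eef2 (658 RPKM), Eif1 (412 RPKM), Eef1g (306 RPKM), Eef1b2 (219.5 RPKM) and Eif3h (211 RPKM). Summed over members, the level was 8820 and 8193 RPKM in MycKO 5 and 6, against 9080, 10059 and 9051 RPKM in controls 1, 2 and 3. Both MycKO sums lay below every control, and Eef1a1 alone made up 42.8% and 43.3% of the sum in MycKO 5 and 6, against 45.4%, 47.1% and 47.1% in controls 1, 2 and 3. Among the role groups, only elongation had a sum below every control in both MycKO libraries. It was 4972 and 4640 RPKM in MycKO 5 and 6, against 5407, 6249 and 5482 RPKM in controls 1, 2 and 3. The lowest member had 60 and 76 reads in MycKO 5 and 6 and 154, 163 and 65 reads in controls 1, 2 and 3.

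The scanning factors eIF1 and eIF1A keep the small subunit open until it meets a start codon. All 5 members had log2 fold changes above 0, with a median of 0.12 (4 of 5 under median-of-ratios scaling, where Eif1b turned), and none passed. The count rested on single libraries: without control 2 it was 2 higher and 3 lower with a median of -0.042, and without MycKO 6 it was 3 higher and 2 lower. Eif1 (mm10 chromosome 11, 100319885 to 100322096, plus strand) had 444 and 429 RPKM in MycKO 5 and 6, against 429, 396 and 363 RPKM in controls 1, 2 and 3. The groups did not overlap, but MycKO 6 and control 1 were nearly equal, and the log2 fold change was 0.14 (SE 0.11, limma adjusted p = 0.685). Eif1ax, the X-linked eIF1A gene, had 83.5 and 59.5 RPKM in MycKO 5 and 6, against 58.4, 60.6 and 56.9 RPKM in controls 1, 2 and 3. Only MycKO 5 stood above the others, and the log2 fold change of 0.26 (SE 0.16) had an adjusted p of 0.575 in limma. Its paralogue Eif1a averaged 21.9 ± 1.84 RPKM in MycKO and 20.8 ± 3.21 RPKM in controls (SD, n = 2 and 3), and Eif1ax took 76.1% of the pair's summed level in MycKO and 73.8% in controls. For Eif1b, a close paralogue of Eif1, the means were 67.2 ± 13.5 RPKM in MycKO and 66.6 ± 17.6 RPKM in controls. Eif1ad, a related gene with an eIF1A-like domain, averaged 34.6 ± 7.16 RPKM in MycKO and 32.4 ± 9.79 RPKM in controls.

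The genes of the 3 subunits of eIF2, which carries the initiator tRNA, had log2 fold changes between -0.03 and 0.12, and none passed. Eif2s1, the alpha subunit whose phosphorylation slows initiation under stress, averaged 33.8 ± 2.11 RPKM in MycKO and 34.6 ± 1.18 RPKM in controls, with a 95% interval of the log2 fold change from -0.33 to 0.26. Eif2s2, the beta subunit, averaged 60.7 ± 3.71 RPKM in MycKO and 57.8 ± 4.44 RPKM in controls. The gamma subunit is encoded on both sex chromosomes in the mouse. Eif2s3y, on the Y chromosome (1010543 to 1028847, plus strand), had 63.2 and 65.2 RPKM in MycKO 5 and 6, against 62.3, 61.6 and 71.3 RPKM in controls 1, 2 and 3. Eif2s3x, on the X chromosome (94188707 to 94212862, minus strand), had 56.8 and 66.0 RPKM in MycKO 5 and 6, against 59.5, 57.0 and 52.6 RPKM in controls 1, 2 and 3. The Y-linked copy was thus present in every library, at 0.987 to 1.11 times the X-linked copy in MycKO and 1.05 to 1.36 times in controls. Per length, the gamma copies together were the most abundant subunit and alpha the least. Eif2a and Eif2d belong here by name only, as separate proteins that can deliver tRNA without eIF2. Eif2d had 16.5 and 17.1 RPKM in MycKO 5 and 6, against 14.97, 14.75 and 14.39 RPKM in controls 1, 2 and 3, and the groups did not overlap (log2 fold change 0.18, SE 0.16, limma adjusted p = 0.731). Eif2a had 34.4 and 17.9 RPKM in MycKO 5 and 6, around the 22.2 to 26.8 RPKM of the controls.

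The exchange factor eIF2B, which reloads eIF2 with GTP, had 5 of 5 subunits with log2 fold changes above 0 (3 of 5 under median-of-ratios scaling, where Eif2b2 and Eif2b5 turned), a median of 0.094 and none called. On leaving out 1 library, 3 to 5 of the 5 were above 0. Eif2b1, the alpha subunit, had 14.6 and 14.9 RPKM in MycKO 5 and 6, against 12.2, 14.4 and 9.21 RPKM in controls 1, 2 and 3. MycKO lay above every control by little, and the log2 fold change of 0.30 (SE 0.22) had a limma adjusted p of 0.682. Eif2b4, the delta subunit, averaged 13.2 ± 1.33 RPKM in MycKO and 11.2 ± 2.17 RPKM in controls (log2 fold change 0.23). Eif2b2 and Eif2b5, the beta and catalytic epsilon subunits, had log2 fold changes of 0.04 and 0.0051. Subunit levels were uneven: the highest was 8.05 and 6.56 times the lowest, Eif2b3 (the gamma subunit), in MycKO 5 and 6, against 11.6, 8.83 and 5.30 times in controls 1, 2 and 3.

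The 4 eIF2 kinases, each of which answers a different stress, had log2 fold changes of 0.093 to 0.12 and none was called. Without MycKO 5 the count was 1 higher and 3 lower, with a median of -0.053, and without MycKO 6 the median was 0.27. Eif2ak1 (the haem-regulated kinase HRI) averaged 34.6 ± 5.31 RPKM in MycKO and 32.2 ± 1.19 RPKM in controls, and took 50.7% of the kinases' summed level in MycKO and 51.3% in controls. Eif2ak2 (PKR, which senses double-stranded RNA) had 21.8 and 12.3 RPKM in MycKO 5 and 6, against 14.3, 18.9 and 13.2 RPKM in controls 1, 2 and 3. The MycKO values of Eif2ak2 thus lay on both sides of all the controls. Eif2ak3 (PERK, of the endoplasmic reticulum) averaged 10.7 ± 1.28 RPKM in MycKO and 9.82 ± 1.43 RPKM in controls. The lowest was Eif2ak4 (GCN2, which senses uncharged tRNA), with 5.94 ± 1.131 RPKM in MycKO and 5.36 ± 0.583 RPKM in controls. The order of the 4 means was the same in MycKO and controls.

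The eIF3 complex, the scaffold on the small subunit, held Eif3f, the member with the most negative log2 fold change. Of 12 subunits, 10 were lower and 2 higher (11 and 1 under median-of-ratios scaling, where Eif3m turned), the median log2 fold change was -0.042 and none passed. This lean also rested on single libraries: without MycKO 6 the split was 7 higher and 5 lower with a median of 0.012, and without control 2 it was 6 and 6 with a median of 0.0070. Eif3f (Entrez 66085, chromosome 7, 108934417 to 108942951, plus strand) had 159.8 and 129 RPKM in MycKO 5 and 6, against 177, 236 and 187 RPKM in controls 1, 2 and 3. Both MycKO libraries lay below every control. Its log2 fold change was -0.46 (SE 0.16, 95% interval -0.83 to -0.096), with an unadjusted p of 0.02004 and an adjusted p of 0.256 in limma. In the authors' deposited table its log2 fold change was -0.53, with an unadjusted p of 0.00259 and an adjusted p of 0.0658, the lowest of any member there. Without control 2, the highest library, the log2 fold change was -0.34. Eif3h, which pairs with Eif3f in the core of the complex, averaged 204 ± 11.7 RPKM in MycKO and 216 ± 16.0 RPKM in controls. Eif3f stood at 0.755 and 0.661 times the level of Eif3h in MycKO 5 and 6, against 0.886, 1.02 and 0.856 times in controls 1, 2 and 3.

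Among the other eIF3 subunits, Eif3g, an RNA-binding subunit, had 100.9 and 87.4 RPKM in MycKO 5 and 6, against 81.7, 84.7 and 76.6 RPKM in controls 1, 2 and 3. It was the only eIF3 subunit above every control in both MycKO libraries (log2 fold change 0.21, SE 0.12, limma adjusted p = 0.524). Eif3i had 101.6 and 83.0 RPKM in MycKO 5 and 6, against 111, 109 and 100.2 RPKM in controls 1, 2 and 3, and the groups overlapped (-0.22, SE 0.12, adjusted p = 0.557 in limma). Eif3e averaged 164 ± 4.83 RPKM in MycKO and 176 ± 6.91 RPKM in controls, without overlap but with a log2 fold change of only -0.094. The remaining subunits Eif3a, Eif3b, Eif3c, Eif3d, Eif3k, Eif3l and Eif3m had log2 fold changes between -0.09 and 0.05. Transcript levels within the complex kept a similar spread in every library. The highest subunit was 3.60 and 3.50 times the lowest in MycKO 5 and 6, against 3.66, 3.70 and 4.05 times in controls 1, 2 and 3.

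**Figure D2:**
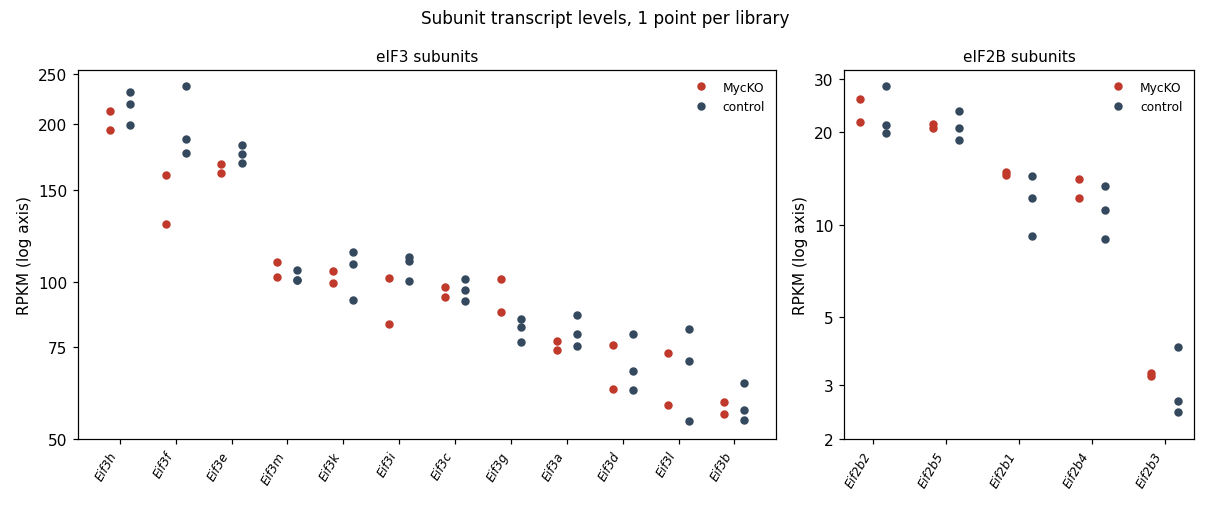
RPKM (log axis) of the 12 eIF3 subunits (left) and the 5 eIF2B subunits (right), ordered by mean level, with 1 point per library, MycKO left of control for each gene. The points of the groups interleave for most subunits, while Eif3f is at 129 and 159.8 RPKM in MycKO, below all controls, and Eif2b3 is the lowest eIF2B subunit throughout.

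The eIF4 factors recruit the mRNA through its cap, and as a group they were centred on 0. Of 15 members, 8 were higher and 7 lower (6 and 9 under median-of-ratios scaling, where Eif4a2 and Eif4e3 turned), with a median log2 fold change of 0.0048. On leaving out 1 library, 6 to 10 of the 15 were higher, and 4 were in the authors' deposited table. Eif4e, the cap-binding protein and a known MYC target, had 19.0 and 17.4 RPKM in MycKO 5 and 6, against 17.3, 10.4 and 17.1 RPKM in controls 1, 2 and 3. MycKO lay above the controls, but by a wide gap only for control 2, and the log2 fold change of 0.30 (SE 0.24, limma adjusted p = 0.71) was 0.074 without that library. Eif4e2, a cap-binding repressor, averaged 20.9 ± 1.33 RPKM in MycKO and 23.3 ± 2.55 RPKM in controls. Eif4e3, the third family member, averaged 25.7 ± 3.80 RPKM in MycKO and 25.0 ± 3.08 RPKM in controls, so that per length the canonical Eif4e was the lowest of the 3 in each group mean.

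The helicase eIF4A has 2 close paralogues that work at the cap. Eif4a1 had 207 and 175 RPKM in MycKO 5 and 6, against 176, 200.3 and 174 RPKM in controls 1, 2 and 3. For Eif4a2 the levels were 70.8 and 92.1 RPKM in MycKO 5 and 6, against 89.3, 63.6 and 91.8 RPKM in controls 1, 2 and 3. The balance between them varied within both groups: Eif4a1 was at 2.92 and 1.90 times Eif4a2 in MycKO 5 and 6, against 1.97, 3.15 and 1.89 times in controls 1, 2 and 3. MycKO 5 and control 2 thus stood together, apart from the other 3 libraries. The same 2 libraries were highest for 12 mitotic genes, a list drawn up after the libraries had been seen, whose summed level was 161 and 79.5 RPKM in MycKO 5 and 6, against 40.6, 217 and 43.2 RPKM in controls 1, 2 and 3. Their part in the Eif4a1 balance was not tested. Eif4a3, which serves the exon junction complex rather than the cap, had 76.3 and 79.5 RPKM in MycKO 5 and 6, against 69.7, 65.5 and 65.4 RPKM in controls 1, 2 and 3. Its groups did not overlap, and the log2 fold change was 0.22 (SE 0.11, 95% interval -0.028 to 0.46, limma adjusted p = 0.448).

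The 4E-BPs hold Eif4e away from its partners when mTOR signalling is low. Eif4ebp2 was the main one, with 50.3 and 46.0 RPKM in MycKO 5 and 6, against 49.4, 58.1 and 52.0 RPKM in controls 1, 2 and 3, and a log2 fold change of -0.14 (SE 0.13). Eif4ebp3 had 17.04 and 21.94 RPKM in MycKO 5 and 6, against 16.2, 14.2 and 15.6 RPKM in controls 1, 2 and 3. MycKO was above every control, and the log2 fold change of 0.32 (SE 0.18) had a limma adjusted p of 0.538. Eif4ebp1 had 11.2 and 5.81 RPKM in MycKO 5 and 6, against 11.4, 11.1 and 4.63 RPKM in controls 1, 2 and 3. With 60 and 76 reads in MycKO 5 and 6, Eif4ebp1 had the widest interval of all members, from -1.03 to 0.92. Within the 3 genes, Eif4ebp2 took 63.2% of the summed level in MycKO and 68.6% in controls, and Eif4ebp3 took 25.7% in MycKO and 19.9% in controls.

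Of the scaffolds that bridge cap and ribosome, Eif4g2, the form that cannot bind eIF4E, was the most abundant, at 170.3 ± 5.70 RPKM in MycKO and 164 ± 5.84 RPKM in controls. Eif4g1 averaged 72.9 ± 3.35 RPKM in MycKO and 68.9 ± 10.002 RPKM in controls, and Eif4g3 averaged 38.5 ± 5.75 RPKM in MycKO and 40.0 ± 4.66 RPKM in controls. Eif4g2 took 60.5% of the 3 genes' summed level in MycKO and 60.1% in controls. The helicase cofactors Eif4b and Eif4h averaged 138 ± 10.4 and 84.7 ± 9.03 RPKM in MycKO and 148 ± 15.1 and 87.1 ± 5.88 RPKM in controls. Eif4enif1, which shuttles eIF4E into the nucleus, was at 26.9 ± 0.754 RPKM in MycKO and 27.6 ± 1.61 RPKM in controls.

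**Figure D3:**
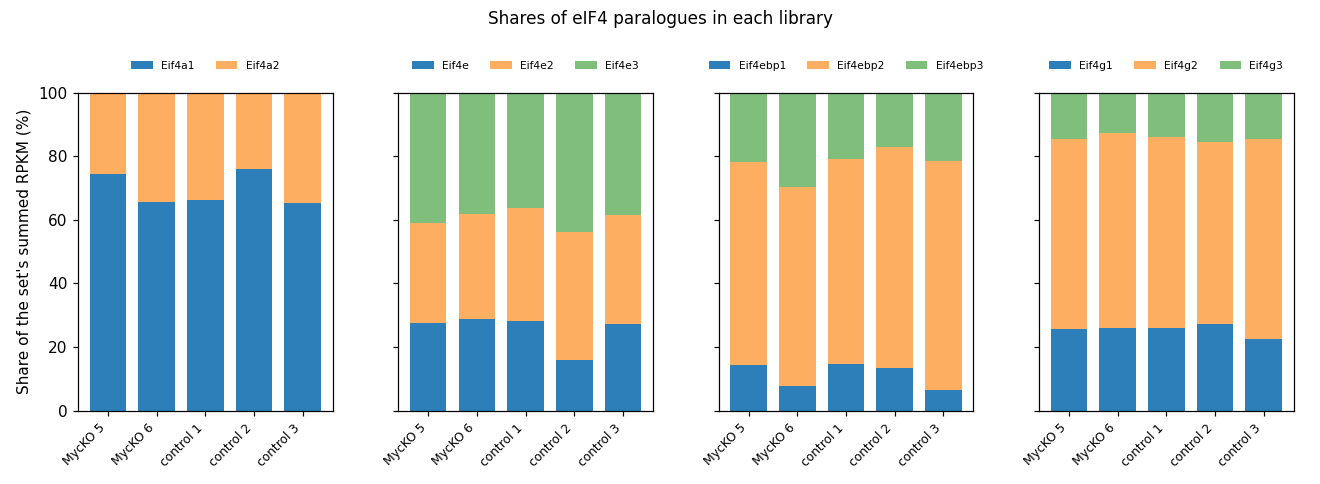
Share of the summed RPKM (%, vertical axis) taken by each paralogue of eIF4A, eIF4E, the 4E-BPs and eIF4G in each library, MycKO 5 and 6 left of controls 1, 2 and 3. Eif4a1 takes 74.5% in MycKO 5 and 75.9% in control 2 but 65.4% to 66.4% in the other libraries, Eif4e takes 16.0% in control 2 and 27.2% to 28.8% elsewhere, and the eIF4G shares differ little.

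Factors of subunit joining and the first peptide bonds were close to 0. Their log2 fold changes had a median of 0.027, with 5 of 5 above 0 (2 of 5 under median-of-ratios scaling, where Eif5, Eif6 and Eif5a2 turned, and 3 to 5 of 5 on leaving out 1 library). Eif5, the GTPase activator of eIF2, averaged 103 ± 2.61 RPKM in MycKO and 103 ± 7.35 RPKM in controls, with a 95% interval of the log2 fold change from -0.25 to 0.26. Eif5a, which carries the amino acid hypusine and helps ribosomes past difficult peptide bonds, averaged 188 ± 16.5 RPKM in MycKO and 178 ± 8.57 RPKM in controls. Its paralogue Eif5a2 took 2.67% of the pair's level in MycKO and 2.86% in controls. Eif5b, the joining GTPase, had 27.7 and 26.4 RPKM in MycKO 5 and 6, against 20.9, 25.8 and 22.7 RPKM in controls 1, 2 and 3. MycKO 6 was only just above control 2, and the log2 fold change was 0.22 (SE 0.15, limma adjusted p = 0.648). Eif6, which keeps the subunits apart during ribosome assembly, averaged 45.4 ± 2.82 RPKM in MycKO and 45.8 ± 9.40 RPKM in controls.

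In the elongation group, all 5 subunits of eEF1 and eEF2 were lower in MycKO, with a median log2 fold change of -0.24, while the kinase and the 2 methyltransferases that modify elongation factors had log2 fold changes above 0, of 0.17 (Eef2k), 0.48 (Eef2kmt) and 0.67 (Eef1akmt1). None of the 8 passed, and the subunits were not tested against the modifying enzymes. Eef1a1 (Entrez 13627, chromosome 9, 78478449 to 78489151, minus strand) had 3774 and 3549 RPKM in MycKO 5 and 6, against 4122, 4741 and 4259 RPKM in controls 1, 2 and 3. Both MycKO libraries lay below every control, and the log2 fold change was -0.25 (SE 0.13, 95% interval -0.57 to 0.058, limma adjusted p = 0.505). Eef2, the translocase (Entrez 13629, chromosome 10, 81176631 to 81182498, plus strand), had 616 and 553 RPKM in MycKO 5 and 6, against 664, 825 and 634 RPKM in controls 1, 2 and 3. MycKO was again below every control, MycKO 5 narrowly so below control 3, with a log2 fold change of -0.27 (SE 0.14, adjusted p = 0.498 in limma). In the authors' deposited table Eef1a1 and Eef2 had unadjusted p-values of 0.0268 and 0.0335 and adjusted p-values of 0.316 and 0.359.

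The subunits of the exchange complex that recharges eEF1A were lower by similar amounts. Eef1g, the structural subunit, had 290.2 and 262 RPKM in MycKO 5 and 6, against 314, 373 and 291 RPKM in controls 1, 2 and 3, and MycKO 5 was all but level with control 3 (log2 fold change -0.23, SE 0.13). Eef1b2, an exchange subunit, had 210.0 and 199 RPKM in MycKO 5 and 6, against 223, 234 and 231 RPKM in controls 1, 2 and 3, a log2 fold change of -0.16 (SE 0.095, adjusted p = 0.558 in limma). Eef1d, the other exchange subunit, had 37.3 and 35.7 RPKM in MycKO 5 and 6, against 50.7, 43.3 and 36.7 RPKM in controls 1, 2 and 3. Here the groups overlapped, through control 3. Without control 2, which was highest for Eef1a1, Eef2, Eef1g and Eef1b2, the median of the 5 subunits was -0.15, still with 5 of 5 lower.

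The largest shift of any member was that of Eef1akmt1 (chromosome 14, 57549597 to 57571612, minus strand), a lysine methyltransferase of eEF1A. It had 18.6 and 19.8 RPKM in MycKO 5 and 6, against 12.6, 11.1 and 11.5 RPKM in controls 1, 2 and 3. The groups were well apart, with a log2 fold change of 0.67 (SE 0.17, 95% interval 0.27 to 1.06), an unadjusted p of 0.00491 and a limma adjusted p of 0.133. The value rests on 85 and 221 reads in MycKO 5 and 6, and in the authors' deposited table the adjusted p was 0.82. Eef2k, the kinase that inactivates eEF2, had 16.6 and 16.8 RPKM in MycKO 5 and 6, against 14.9, 15.1 and 14.3 RPKM in controls 1, 2 and 3, with a log2 fold change of 0.17 (SE 0.16). Eef2kmt, which methylates eEF2, was at 9.68 and 5.57 RPKM in MycKO 5 and 6, against 5.68, 6.47 and 3.33 RPKM in controls 1, 2 and 3, and the groups overlapped. Its log2 fold change of 0.48 was 0.13 without MycKO 5, 0.25 without control 3 and 0.83 without MycKO 6.

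Many mRNAs of the translation machinery, those of ribosomal proteins among them, begin with a run of pyrimidines, the terminal oligopyrimidine (TOP) tract, through which mTOR and LARP1 govern their translation and stability. Of the members, 9 were listed here as known TOP mRNAs: the 5 eEF1 and eEF2 subunits, Eif3e, Eif3f, Eif3h and Eif4b. The list was not checked against a published one, and other members may belong to the class. The list was drawn up from general knowledge with earlier results of these data known, so its counts are a description and no independent evidence. Both the counts and the contrast with the other members depend on which members were listed. All 9 were lower in MycKO, with a median log2 fold change of -0.23 and a range from -0.46 to -0.086, whereas the other 51 members had 35 higher and 16 lower and a median of 0.057. That lean of the other 51 depended on the processing: they had 26 higher and 25 lower (median 0.0037) under median-of-ratios scaling, 29 and 22 in limma-voom, 24 and 27 in the authors' deposited table and 25 and 26 without MycKO 5. In 6 of the 9 (Eef1a1, Eef2, Eef1g, Eef1b2, Eif3e, Eif3f) both MycKO libraries lay below every control, and none of the other 51 did so. Over the members as a whole this was 6 of 60, a share close to the 10.4% of all genes tested. The 9 were listed with results known, so their own share was not set against all genes. None of the 9 passed the test singly. All 9 stayed below 0 under each of the 10 alternatives, with a median between -0.30 and -0.15, the smallest without control 2. The alternatives reuse the same libraries, and the list was made with results known, so this is no separate support. The difference between the 9 and the other members was not tested. The summed marker levels of other cell types given above were higher in the same MycKO libraries, and their part in the lower levels of the 9 was not tested.

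**Figure D4:**
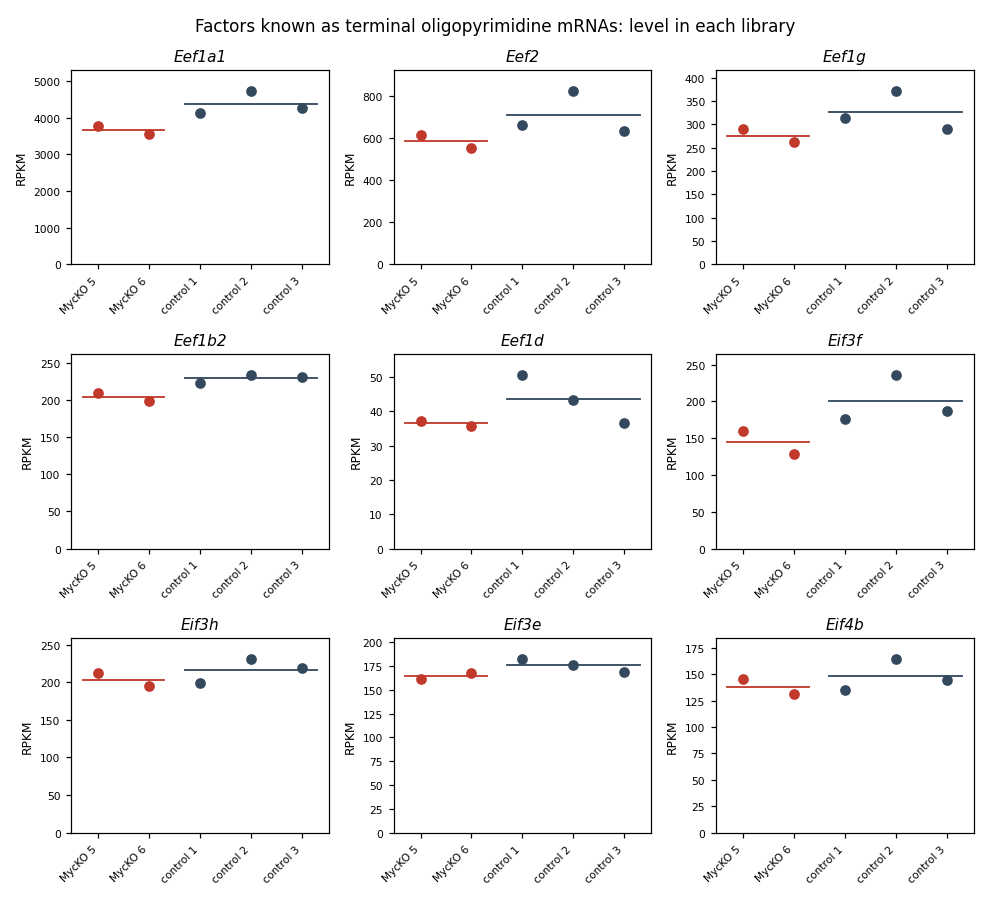
RPKM (vertical axis from 0) of the 9 members listed here as TOP mRNAs in each library, MycKO 5 and 6 left of controls 1, 2 and 3. Points are libraries and lines are group means. The MycKO mean is below the control mean in every panel, and for Eif3h, Eif4b and Eef1d the points of the groups overlap.

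The starts of the 5 of these 9 genes that have an entry in RefSeq's promoter table (GRCm38.p6, the mm10 assembly) are shown because the tract defines the class. Each line gives 30 bases before and 20 from the annotated start onward, 5′ to 3′ on the gene's strand, with the longest run of C and T letters within 20 bases either side in capitals.
Eef1a1, chr9:78481705-78481754, minus strand: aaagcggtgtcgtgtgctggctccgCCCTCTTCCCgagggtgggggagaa
Eef2, chr10:81176601-81176650, plus strand: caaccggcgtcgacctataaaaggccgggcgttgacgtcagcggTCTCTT
Eef1b2, chr1:63176801-63176850, plus strand: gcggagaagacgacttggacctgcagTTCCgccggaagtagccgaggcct
Eif3f, chr7:108934385-108934434, plus strand: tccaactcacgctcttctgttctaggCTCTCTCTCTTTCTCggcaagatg
Eif4b, chr15:102073743-102073792, plus strand: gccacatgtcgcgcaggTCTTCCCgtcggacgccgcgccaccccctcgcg
The run was 15 bases in Eif3f, 10 in Eef1a1, 7 in Eif4b, 6 in Eef2, where it met the end of the window, and 4 in Eef1b2. Runs of at least 8 bases were found in 2 of these 5, in 9 of the 47 members with an entry and in 15.6% of the 8725 tested genes with one. Long runs also stood near the starts of members outside the 9: 21 bases in Eif2b5, 16 in Eif2s3x, 12 in Eif2s3y and 11 in Eif3m. Their log2 fold changes were 0.0051, 0.12, -0.02 and 0.05. The Eif2b5 run began 17 bases before the annotated start and crossed it, and the Eif3m run began 20 bases before the start and ended ahead of it. The annotated start can differ from the start used in NK cells, so a short run says nothing about the true mRNA end.

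MYC and MAX bind the E-box CACGTG, which reads the same on both strands. In windows from 250 bases before to 50 after the start, 10 of 47 members (21.3%) held it, against 10.5% of the 8725 tested genes with a window. These were Eef2, Eef2k, Eif1b, Eif3a, Eif3f, Eif3k, Eif4a1, Eif4g1, Eif4h and Eif5a2. Their log2 fold changes ran from -0.46 to 0.17 with 5 higher and 5 lower and a median of -0.0015, and the 37 members without it had 23 higher and 14 lower and a median of 0.045. The E-boxes of the 5 most abundant of these factors are shown, in capitals, with 17 bases on each side.
Eif3f, chr7:108934330-108934369, plus strand, 68 bases before the start: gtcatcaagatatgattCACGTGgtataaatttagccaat
Eef2, chr10:81176571-81176610, plus strand, 43 bases before the start: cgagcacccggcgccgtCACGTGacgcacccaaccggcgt
Eif4a1, chr11:69672590-69672629, minus strand, 189 bases before the start: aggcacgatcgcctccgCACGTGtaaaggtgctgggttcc
Eif3k, chr7:28981910-28981949, minus strand, 44 bases before the start: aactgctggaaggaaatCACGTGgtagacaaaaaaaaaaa
Eif4h, chr5:134639483-134639522, minus strand, 96 bases before the start: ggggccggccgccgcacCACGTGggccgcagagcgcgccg
Genes with the same motif differed in level change: Eif3f and Eef2 had log2 fold changes of -0.46 and -0.27, and Eif4a1, Eif3k and Eif4h of 0.06, -0.03 and -0.04. A match of letters is a description and does not show binding in these cells.

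Partners of these factors also gave no call. Over 20 genes of cap and poly(A) function and their kinases, 0 passed limma's test in either direction (2 at an unadjusted p under 0.05, against 13.2% of all genes, and 0 by limma-voom at an adjusted p under 0.05), 10 were higher and 10 lower, and the median log2 fold change was -0.029. Mknk2, a kinase that phosphorylates eIF4E, had 96.8 and 112 RPKM in MycKO 5 and 6, against 139.0, 129.9 and 123 RPKM in controls 1, 2 and 3, below every control (-0.32, SE 0.12, limma adjusted p = 0.296). Pabpc4, also at an unadjusted p under 0.05 in limma, went the other way, with 16.8 and 13.1 RPKM in MycKO 5 and 6. Controls 1, 2 and 3 had 9.63, 8.55 and 12.2 RPKM of it (0.52, SE 0.22, limma adjusted p = 0.379). Pabpc1, the poly(A)-binding protein, whose mRNA is also of the TOP class, had 489 and 415 RPKM in MycKO 5 and 6, against 468, 562 and 457 RPKM in controls 1, 2 and 3, and the groups overlapped. Of 5 tested termination and recycling genes, 7 eIF2 phosphatases and outputs, 8 hypusine and diphthamide enzymes and 9 mitochondrial factors, none was called. At an unadjusted p under 0.05 limma gave 0, 0, 2 and 1 of them, against 13.2% of all genes tested. Their median log2 fold changes were 0.024, 0.045, 0.078 and 0.19. In limma-voom the medians were 0.084, 0.030, 0.11 and 0.39, and in the authors' deposited table -0.031, -0.016, 0.035 and 0.15. Atf4, whose translation rises when eIF2 is phosphorylated, had 117 and 97.1 RPKM in MycKO 5 and 6, against 120.2, 117 and 117 RPKM in controls 1, 2 and 3. Dohh, the second enzyme of hypusine synthesis, had 18.9 and 12.9 RPKM in MycKO 5 and 6, against 11.7, 10.5 and 8.53 RPKM in controls 1, 2 and 3 (0.57, SE 0.24, adjusted p = 0.357 in limma). Dph1, of the same list, was also above every control (1.14, SE 0.47, adjusted p = 0.368 in limma). It rested on few reads, 39 and 74 in MycKO 5 and 6 and 41, 1 and 46 in controls 1, 2 and 3. The mitochondrial elongation factor gene Tufm had 28.9 and 26.2 RPKM in MycKO 5 and 6, against 24.2, 19.6 and 18.5 RPKM in controls 1, 2 and 3, while its exchange factor Tsfm had 14.4 and 15.6 RPKM in MycKO 5 and 6, against 16.999, 23.04 and 21.64 RPKM in controls 1, 2 and 3. Tufm lay above and Tsfm below every control, with limma adjusted p-values of 0.374 and 0.389. These partners were picked for naming with their values in view.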

How the data were processed

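Per the labels' protocols, RNA of sorted cells was made into stranded dUTP libraries and read as single reads. Per the submitters' processing notes, TopHat and edgeR were used, without a stated role, with mm10. The counting tool, versions, annotation and any use of strand when counting are not stated in the sources used here, and 12 members overlap a protein-coding gene on the other strand in GENCODE vM21 (among them Eef1b2, Eif4a2, Eif5b, Eif2a and Eif2d). On the same strand, 21 members overlap another annotated gene, Eif4ebp3 among them, and reads in the overlap could belong to either gene. Reads shared with pseudogenes could be split.

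Per the file headers, the deposited table holds RPKM per sample, the authors' mean signal per group (scaled read counts), the authors' fold change between groups as a ratio and on the log2 scale, and p-values, raw and adjusted, from a program the headers do not name.

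RPKM was analysed as log2(RPKM + 1) for the 11190 genes that reached 1 RPKM in 2 or more libraries. limma 3.58.1 in R 4.3.3 with a variance trend was fitted over all 5 samples (3 residual and 4.41 prior degrees of freedom). Tests were two-sided, with Benjamini-Hochberg adjustment over all genes tested and a threshold of 0.05. Reads were worked out from RPKM and group means (100% of values whole within 0.0001 of a read) and used for depth and limma-voom. The procedure was tested on simulated data. Members and gene lists were chosen with earlier results of these data known. A red cell marker is not reported here. Named in each role group were the most abundant member, the 3 of smallest p, non-overlapping members past 0.3 on the log2 scale and all paralogue sets; the others were added to account for every member. Gene coordinates are from GENCODE vM21 on mm10. Alternatives were a pseudocount of 0.1, no filter, median-of-ratios scaling, limma-voom, the authors' deposited test and leaving out each library.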

Additional observations from a re-analysis of the deposited data

How the results depend on the processing

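No member passed the test under any of the 10 alternatives (0 called in each). The number of all genes called was 150 in the fit reported, 232 in limma-voom, 80 with a pseudocount of 0.1, 442 in the authors' deposited test and 34 to 217 on leaving out 1 library. Group medians of log2 fold change on leaving out 1 library ranged as follows: eIF1 and eIF1A -0.042 to 0.23, eIF2 0.0068 to 0.081, eIF2B 0.083 to 0.19, eIF2 kinases -0.053 to 0.27, eIF3 -0.10 to 0.012, eIF4 -0.062 to 0.092, late initiation 0.027 to 0.10, elongation -0.23 to -0.14. Under the other alternatives, the eIF2B median was 0.16 in limma-voom and 0.040 in the authors' deposited test, the eIF2 median was -0.017 under median-of-ratios scaling, and the late initiation median was -0.058 in the authors' deposited test. Median-of-ratios scaling divides both MycKO libraries by 1.03 and the controls by 0.984 to 0.997, so it lowers log2 fold changes throughout. The median over all genes under it was -0.0011. The cause of the other shifts was not tested.

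Of 600 member values under alternatives, 519 kept their sign and 81 turned, all of them in 31 members whose reported log2 fold change was at most 0.12 in size, and none passed the test. Under median-of-ratios scaling these were Eif1b -0.024, Eif2b2 -0.0085, Eif2b5 -0.046, Eif3m -0.0076, Eif4a2 -0.048, Eif4e3 -0.017, Eif6 -0.043, Eif5a2 -0.018 and Eif5 -0.049. In limma-voom they were Eif1b -0.032, Eif2b2 -0.0011, Eif2b5 -0.0088, Eif2ak2 -0.068, Eif4e3 -0.030 and Eif6 -0.025. In the authors' deposited test they were Eif1b -0.052, Eif2b2 -0.031, Eif2b5 -0.061, Eif3m -0.015, Eif4a1 -0.0017, Eif4a2 -0.062, Eif4g2 -0.0021, Eif4e3 -0.028, Eif6 -0.073, Eif5a2 -0.10 and Eif5 -0.058. On leaving out 1 library, the ranges were Eif1a -0.042 to 0.17, Eif1ad -0.15 to 0.33, Eif1b -0.17 to 0.23, Eif2a -0.45 to 0.45, Eif2ak1 -0.060 to 0.25, Eif2ak2 -0.29 to 0.49, Eif2ak4 -0.046 to 0.29, Eif2b2 -0.081 to 0.19, Eif2b3 -0.0079 to 0.26, Eif2b5 -0.067 to 0.083, Eif2s1 -0.094 to 0.029, Eif2s3y -0.054 to 0.050, Eif3b -0.071 to 0.044, Eif3c -0.050 to 0.020, Eif3d -0.15 to 0.13, Eif3k -0.12 to 0.032, Eif3l -0.22 to 0.11, Eif3m -0.0017 to 0.093, Eif4a1 -0.062 to 0.18, Eif4a2 -0.18 to 0.19, Eif4e3 -0.11 to 0.18, Eif4ebp1 -0.47 to 0.37, Eif4enif1 -0.069 to 0.010, Eif4g1 -0.010 to 0.19, Eif4g3 -0.21 to 0.091, Eif4h -0.15 to 0.066, Eif5 -0.056 to 0.04, Eif5a -0.013 to 0.17, Eif5a2 -0.25 to 0.24 and Eif6 -0.17 to 0.11. Eif3f ranged from -0.62 to -0.31 and Eef1akmt1 from 0.62 to 0.74 over all alternatives, with adjusted p-values of 0.0658 to 0.702 and 0.133 to 0.82.

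No paired analysis was possible because the labels give the groups no replicate number in common. With 2 MycKO libraries, 1 of them at 5451728 reads, the 95% interval of 18 of 60 members reached past a 1.5-fold change on the log2(RPKM + 1) scale. P-values over the threshold do not show equal levels.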

Other observations

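Control 2 stood apart from the other libraries in several members of different roles. Eif1ad had 29.5 and 39.7 RPKM in MycKO 5 and 6, against 38.2, 21.1 and 38.0 RPKM in controls 1, 2 and 3, so its lowest values were those of control 2 and MycKO 5, the libraries in which Eif4a2 was also lowest. Eif5a2 had 5.14 and 5.13 RPKM in MycKO 5 and 6, against 7.13, 3.08 and 5.58 RPKM in controls 1, 2 and 3. Eef2 and Eif3f, by contrast, had their highest level in control 2, at 825 and 236 RPKM. The ratio of Eif4b to Eif4e was 7.66 and 7.53 in MycKO 5 and 6, against 7.77, 15.8 and 8.45 in controls 1, 2 and 3. These members were picked after their values were seen.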
